A study of Mus musculus with 46 samples.

Results

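These results describe 866 regions of the mouse liver genome where the transcription factor CEBPa had a peak in at least 3 of 4 vehicle livers and in none of 4 livers collected 27 h after TCPOBOP. They were chosen from 63546 regions, formed by merging peaks that overlapped by at least 1 bp across the 8 CEBPa lists of that time, so 1.36% of the regions met the definition. The CEBPa calls of 27 h chose the regions and are given as a description, with no test. A call means that the peak caller listed a peak in that liver's library, and a region without a call may still hold signal below the caller's threshold.

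All samples were whole liver of male CD-1 mice, an outbred stock, with 1 library per liver and factor. TCPOBOP livers came from mice injected with 3 mg/kg TCPOBOP, and vehicle livers from mice injected with 1% DMSO in corn oil. Livers C1 to C4 (vehicle) and D1 to D4 (TCPOBOP) were taken at 27 h from mice aged 8 weeks, and CEBPa, CEBPb and RXRa, labelled RXR here, were precipitated from the same 8 livers. The 3 h lists of both CEBP factors come from vehicle livers A44 to A46 and TCPOBOP livers D44 to D46 of mice aged 7 weeks, and those of RXR from vehicle livers A1, A3 and A4 and TCPOBOP livers B1, B3 and B4 of mice aged 8 weeks. The CEBP libraries of 27 h share a sequencing lane by the run names in the labels, while those of 3 h lie on another flow cell. Lists of called peaks hold no levels of expression, so the tissue label was not checked against marker genes here.

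CEBPa and CEBPb are basic leucine zipper factors that recognise the same DNA motif and can pair with each other. CEBPa is known for keeping hepatocytes differentiated and for driving metabolic genes, and CEBPb for the acute phase response and liver regeneration. TCPOBOP activates the nuclear receptor CAR, which binds DNA as a partner of RXR and induces drug-metabolising enzymes and liver growth. In whole liver, fewer cells with CEBPa on a site and less CEBPa per cell cannot be told apart. Positions below are on the assembly mm9, and regions carry no gene names or sequence because no genome or annotation of that assembly was used here.

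The regions sat at the weak end of CEBPa binding in the vehicle livers, as far as peak width shows it. Only 131 of the 866 regions (15.1%) had a CEBPa peak in all 4 vehicle lists, and 735 had one in 3. The peaks had a median width of 221 bp in C1, 231.5 bp in C2, 230 bp in C3 and 229 bp in C4, against medians of 261, 265, 266 and 277 bp over all peaks of those lists. Ranked by width within its own list, the median peak at these regions stood at the 25.8th percentile in C1, the 32.3rd in C2, the 31.0th in C3 and the 26.3rd in C4. Regions with a CEBPa peak in all 8 lists, of which there were 12936, stood at the 69.5th to 75.8th percentile in the same vehicle lists. Regions with mixed CEBPa calls, defined below, stood at percentiles of 25.8, 32.0, 32.7 and 28.9 in C1 to C4. Narrow peaks were therefore not particular to the 866 regions. Averaged over its vehicle peaks, a region's percentile ran from 5.61 to 96.3 with a median of 31.5, and 14.4% of the regions reached 50 or more. Peaks of the 866 regions were therefore mostly, but not all, narrow.

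**Figure D1:**
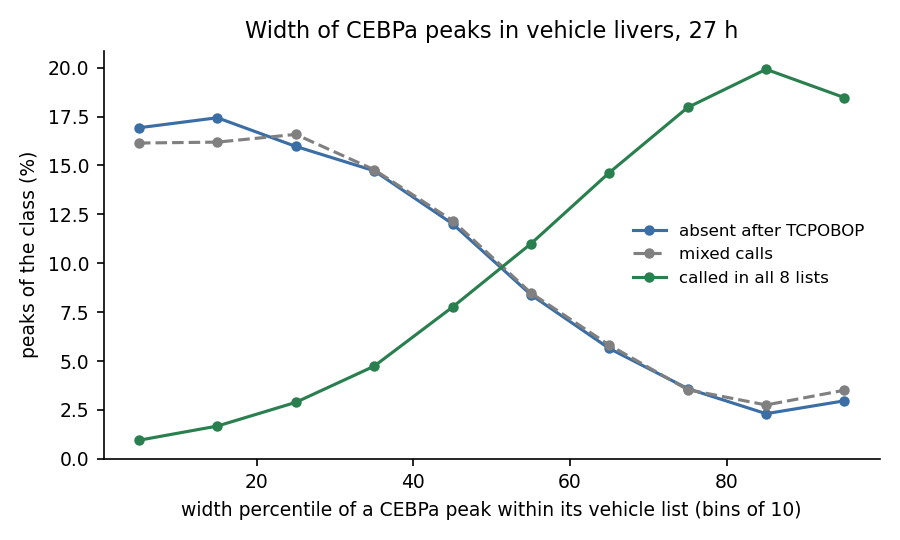
Share of CEBPa peaks (y axis, percent of the peaks of a class in the 4 vehicle lists of 27 h) by width percentile within the list (x axis, bins of 10). Peaks at the regions absent after TCPOBOP lie low, as do those of regions with mixed calls, while peaks called in all 8 livers lie high.

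The number of regions is given here beside the lengths of the 8 lists. CEBPa lists held 26145, 35193, 35663 and 30936 peaks in C1 to C4 and 29066, 28818, 28825 and 20396 in D1 to D4. D4 was the shortest list and C1 the shortest of the vehicle lists, and C2, C3 and C4 were longer than all TCPOBOP lists. The mean was 31984 ± 4436 peaks in vehicle and 26776 ± 4255 in TCPOBOP livers (SD, n = 4 each), and the groups overlapped through C1. Of the 735 regions with 3 vehicle calls, 300 lacked C1, 186 lacked C4, 132 lacked C2 and 117 lacked C3, an order that follows list length from the shortest to the longest. The reverse pattern, with a peak in at least 3 TCPOBOP lists and no vehicle list, was met by 162 regions (0.255% of 63546). When all 8 lists were shortened to their 20396 widest peaks, 326 regions were absent after TCPOBOP and 334 had the reverse pattern, and 106 of the 326 overlapped one of the 866. This cut takes out narrow peaks, and the peaks at the 866 regions were mostly narrow. The part of list length in the number of regions was not tested.

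The short list of D4 excluded the fewest regions. Among the 1869 regions with at least 3 vehicle calls and exactly 1 TCPOBOP call, the TCPOBOP call came from D1 at 592, from D2 at 568, from D3 at 538 and from D4 at 171. Leaving out D4 raised the number of absent regions from 866 to 1035, and leaving out D1, D2 or D3 raised it to 1458, 1434 or 1403. Leaving out C1, C2, C3 or C4, with at least 3 vehicle calls still required, lowered it to 431, 263, 249 or 317. Leaving out a TCPOBOP list can only raise the number and leaving out a vehicle list can only lower it, so these counts do not show how many regions a longer list of D4 would have excluded.

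**Figure D2:**
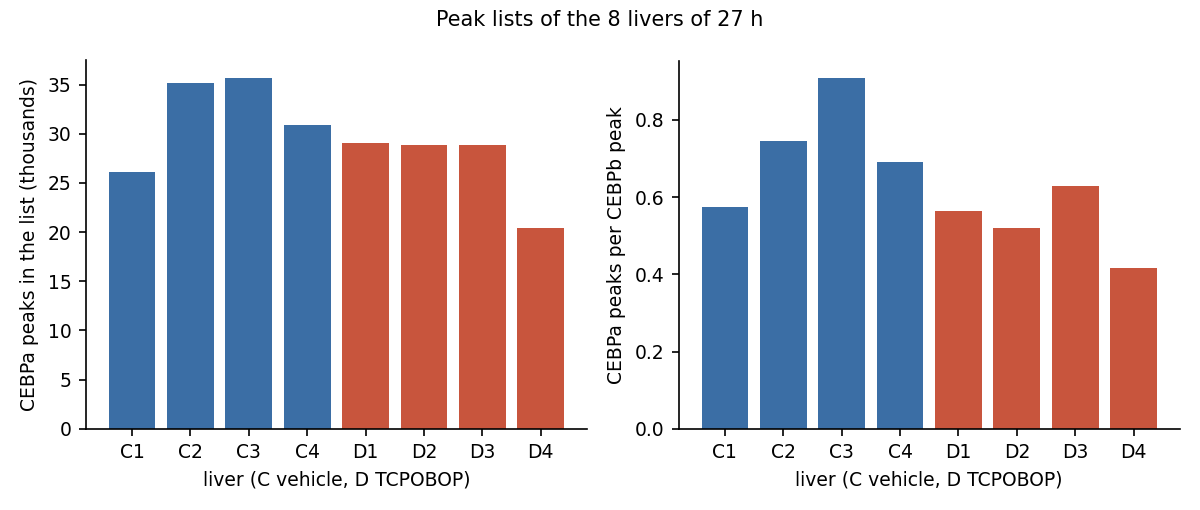
CEBPa peaks in each list (left) and CEBPa peaks per CEBPb peak of the same liver (right) for the 8 livers of 27 h; each bar is 1 liver. D4 has the fewest CEBPa peaks, 20396, and the lowest ratio, 0.418.

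The same livers gave CEBPb lists that were not short in D4. CEBPb lists held 45460, 47279, 39275 and 44791 peaks in C1 to C4 and 51588, 55513, 45877 and 48849 in D1 to D4. There were 0.575, 0.744, 0.908 and 0.691 CEBPa peaks per CEBPb peak in C1 to C4, and 0.563, 0.519, 0.628 and 0.418 in D1 to D4. The groups overlapped only through C1 and D3. The mean ratio was 0.730 ± 0.138 in vehicle and 0.532 ± 0.0886 in TCPOBOP livers (SD, n = 4 each). Since the CEBPa lists chose the regions, no test of treatment on their length or on this ratio is given.

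CEBPb was called at most of the regions where the CEBPa peak was missing, at mean shares above those over all CEBPa regions. In vehicle livers CEBPb was called at 67.7%, 69.9%, 58.3% and 67.3% of the 866 regions in C1 to C4. In TCPOBOP livers it was called at 71.5%, 75.2%, 63.5% and 69.2% in D1 to D4. The groups overlapped, and the lowest share of each group came from its shortest CEBPb list, C3 and D3. The means were 65.8% ± 5.11 and 69.8% ± 4.89 (SD, n = 4 each), 4.04 percentage points higher after TCPOBOP. Over all 63546 regions they were 57.1% ± 2.97 and 62.4% ± 2.905, a difference of 5.35 points. Many of those regions had CEBPa in a single list, 15026 in 1 vehicle list only and 8545 in 1 TCPOBOP list only. At regions with mixed CEBPa calls, defined below, the CEBPb means were 67.3% and 77.0%, the second above that of the 866 regions. With the 8 CEBPb lists shortened to the same number of widest peaks the difference at the 866 regions turned to -4.71 points, so neither direction held across list lengths. This cut takes more narrow peaks from longer lists, which were mostly those of TCPOBOP livers. The difference over all regions is not given under it. No p is given for shares over these regions, since they were chosen with results of these data known.

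Counted per region, CEBPb was called in at least 3 TCPOBOP livers at 560 of 866 regions (64.7%) and in at least 3 vehicle livers at 512 (59.1%), against 57.6% and 51.6% of all 63546 regions. The 64.7% became 43.4% with CEBPb lists of equal length. It was called in all 8 livers at 201 regions (23.2%, against 36.9% of all regions) and in none at 28 (3.23%, against 17.1%). More TCPOBOP than vehicle livers had CEBPb at 307 regions (35.5%, against 25.1%), fewer at 192 (22.2%, against 11.9%), and as many at 367 (42.4%, against 63.0%). CEBPb calls at these regions were thus more often split between livers, in both directions, than over all regions, a difference given without a test. The split was not particular to them. At regions with mixed CEBPa calls, defined below, more TCPOBOP livers had CEBPb at 40.4%, fewer at 16.3% and as many at 43.3%. At the 131 regions with CEBPa in all 4 vehicle lists, CEBPb was called in at least 3 TCPOBOP livers at 102 (77.9%), and at 2 it was called in no liver.

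**Figure D3:**
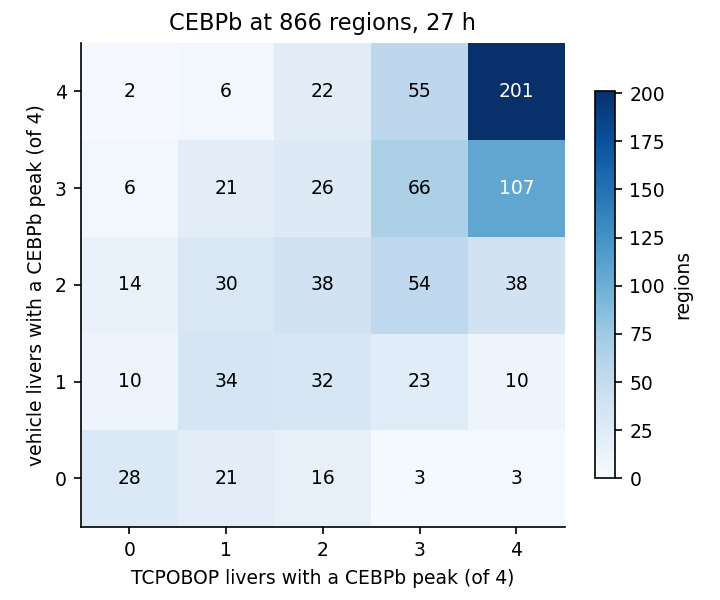
Number of the 866 regions by how many vehicle livers (y axis) and TCPOBOP livers (x axis) of 27 h had a CEBPb peak; darker cells hold more regions. The fullest cell is CEBPb in all 8 livers, with 201 regions, and the column with no TCPOBOP liver holds 60 regions in all.

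Widths of CEBPb peaks at these regions overlapped between the treatments. At the 201 regions with CEBPb in all 8 livers, the median CEBPb peak was 264, 270, 252 and 264 bp wide in C1 to C4 and 262, 282, 257 and 267 bp in D1 to D4. These medians lay near those of the whole CEBPb lists, 267 to 276 bp. Over every called CEBPb peak at the 866 regions the medians were lower. They were 247, 251, 237 and 250 bp in C1 to C4 and 250, 261, 239.5 and 249 bp in D1 to D4. CEBPb peaks over all 63546 regions had medians of 280 to 300 bp, and those at regions with mixed CEBPa calls 239 to 267 bp.

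Loss of CEBPb together with CEBPa was rare, though more frequent than over all regions. CEBPb had a peak in at least 3 vehicle livers and in no TCPOBOP liver at 8 of the 866 regions (0.924%). That compares with 0.244% of all 63546 regions and 0.219% of regions with mixed CEBPa calls. The reverse, in at least 3 TCPOBOP livers and no vehicle liver, held at 6 (0.693%), against 1.18% and 1.47%. These differences were not tested. Both factors came from the same livers, so differences between animals are shared by the calls. Leaving out a CEBPa library moved the 0.924% to 1.61% without C3, 0.315% without C4 and 0.558% without D2. Leaving out a CEBPb library, which also loosens the pattern, moved it to 1.62% (C1 or C3), 1.73% (C2 or D1), 1.85% (D4) and 1.96% (C4 or D2), and CEBPb lists of equal length gave 2.19%. No share over all regions is given for these alternatives. Fisher's exact test was run per region over all 63546 regions, with Benjamini-Hochberg adjustment. The smallest p that 4 livers against 4 allow is 0.0286, reached by 222 of all regions. Those are too few for any region to pass the adjustment for CEBPb at 27 h, so nothing is concluded from it. Of the 866 regions, 5 reached this p. CEBPb was lower after TCPOBOP at 2 (0.231%, against 0.0330% of all regions) and higher at 3 (0.346%, against 0.316%).

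Of the 8 regions where both CEBP factors were absent after TCPOBOP, the one with the widest CEBPa peaks for their lists was on chromosome 10 at 72025561 to 72025912. CEBPa peaks there were 238, 268, 247 and 352 bp wide in C1 to C4, and CEBPb peaks 201, 235 and 230 bp in C1, C2 and C4. It had no RXR peak in any list, and 1 CEBPa peak at 3 h, in the TCPOBOP liver D44. The next, on chromosome 2 at 77860948 to 77861312, had CEBPa in C1, C3 and C4 and CEBPb in C2, C3 and C4, and CEBPa was called in 2 vehicle and 2 TCPOBOP livers at 3 h. Regions on chromosome 2 at 157640147 to 157640453 and at 141104739 to 141105044, followed in width. CEBPb was called in all 4 vehicle livers at only 2 of the 8 regions, on chromosome 4 at 36887186 to 36887415 and on chromosome 13 at 28622389 to 28622624. At the region on chromosome 9, 108241107 to 108241385, all 4 TCPOBOP lists had a CEBPa peak within 500 bp, and a region called in all 8 lists lay 251 bp away. The last region lay on chromosome 7 at 107093478 to 107093729, with CEBPa in 2 vehicle and 2 TCPOBOP livers at 3 h.

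The regions with the widest CEBPa peaks among those called in all 4 vehicle lists showed both outcomes for CEBPb. On chromosome 9 at 86846977 to 86847339 CEBPa peaks were 341, 295, 322 and 333 bp wide in C1 to C4. CEBPb peaks there were 308, 361, 540 and 559 bp wide in C1 to C4, and of the TCPOBOP livers only D4 had one, of 227 bp. CEBPb was thus present in every vehicle liver and in 1 TCPOBOP liver. On chromosome 2 at 5743488 to 5743933 CEBPa peaks were 313, 396, 260 and 339 bp wide in C1 to C4, while CEBPb and RXR were called in all 8 livers and CEBPa in all 6 livers of 3 h. CEBPb peaks there were 442, 428, 456 and 411 bp wide in C1 to C4 and 425, 398, 399 and 386 bp in D1 to D4. The CEBPa call was the only one of these lists that differed by treatment at this site.

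Another 5 of the 10 widest regions of this kind had CEBPb in all 8 livers. They lay on chromosome 2 at 155467609 to 155467959 and at 134870074 to 134870458, on chromosome 7 at 87028660 to 87029091, on chromosome 5 at 89061464 to 89061824 and on chromosome 3 at 118711550 to 118711962. The one on chromosome 5 also had RXR in all 8 livers and all 3 factors in all 6 livers of their 3 h lists. At the region on chromosome 1 at 34294508 to 34295013, CEBPb was called in every liver but C3. The region on chromosome 8 at 116063884 to 116064696, the longest of all at 813 bp, had CEBPb in 3 vehicle and 3 TCPOBOP livers. On chromosome 1 at 161438794 to 161439174 CEBPb was called in 1 vehicle and 3 TCPOBOP livers. Thus in 9 of these 10 regions CEBPb was called in at least 3 TCPOBOP livers. That held at 77.9% of the 131 regions from which they were picked, and at 57.6% of all regions.

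Of the regions with CEBPb in all 8 livers, the 5 with the highest mean width percentile of their CEBPa peaks are described here. On chromosome 11 at 116079545 to 116080143 CEBPa peaks were 494, 427 and 570 bp wide in C2, C3 and C4, and C1 had none. CEBPb was called there in all 8 livers, with peaks of 203 to 672 bp, and so was RXR, with peaks of 296 to 711 bp. On chromosome 16 at 65617941 to 65618451 CEBPa peaks were 350, 511 and 423 bp wide in C2, C3 and C4, RXR had no peak in any list, and CEBPa was called in all 6 livers of 3 h. The next were on chromosome 5 at 141311222 to 141311645, on chromosome 4 at 135816561 to 135817153 and on chromosome 1 at 58439512 to 58440046, each with CEBPa in 3 vehicle livers. These 5 were picked by the width of their CEBPa peaks, so their mean percentiles of 84.0 to 96.3 follow from that choice.

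**Figure D4:**
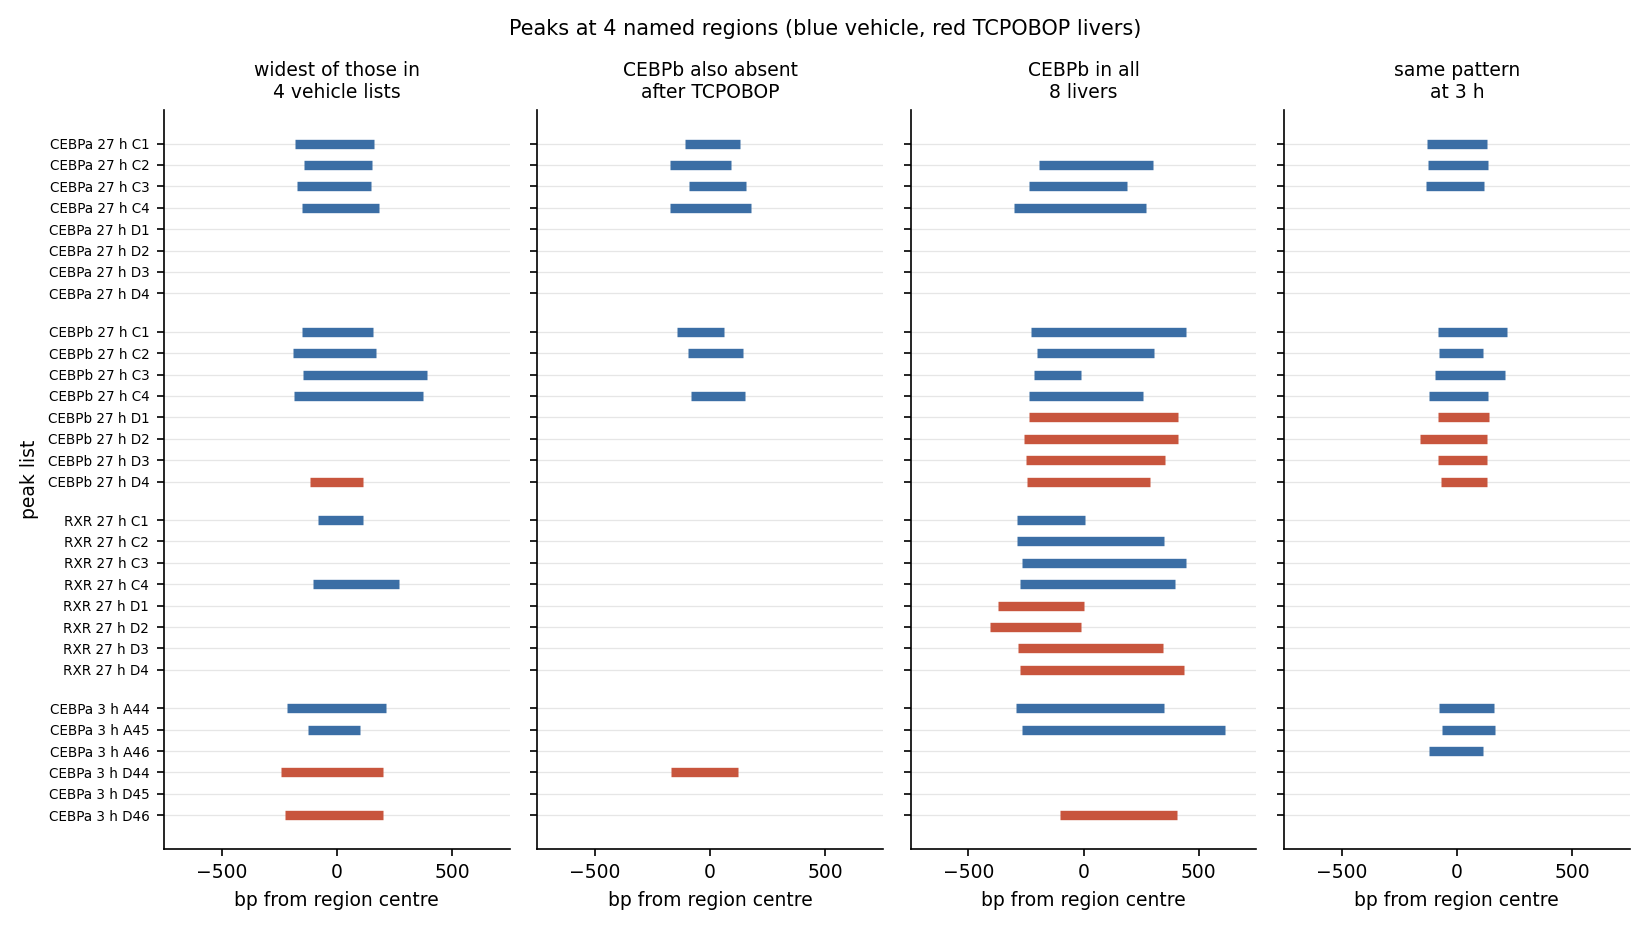
Extent of each called peak (bars, bp from the centre of the region) in the lists of 27 h and the CEBPa lists of 3 h at 4 regions, on chromosomes 9, 10, 11 and 5 from left to right; blue bars are vehicle and red bars TCPOBOP livers. No red bar appears in the CEBPa rows of 27 h, which is how the regions were chosen, while CEBPb bars of TCPOBOP livers appear in 3 of the 4 panels.

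RXR was called at a small share of the regions. In C1 to C4 it was called at 14.1%, 16.3%, 15.6% and 19.4% of the 866, and in D1 to D4 at 18.4%, 14.7%, 11.3% and 14.4%. The groups overlapped, at 16.3% ± 2.24 in vehicle and 14.7% ± 2.88 in TCPOBOP livers (SD, n = 4 each). Over all 63546 regions RXR was called at 18.5% and 18.2%. At 628 of the 866 regions no liver of 27 h had RXR (72.5%, against 69.7% of all regions), and at 73 all 8 had it (8.43%, against 9.51%). RXR peaks in at least 3 vehicle livers and no TCPOBOP liver occurred at 3 regions (0.346%, against 0.296% of all regions), and the reverse at 0 regions (against 0.349%). In Fisher's exact test over all regions the smallest possible p, 0.0286, was reached by 91 of all regions for RXR. Those are too few for any region to pass the adjustment, so nothing is concluded from it. Of the 866 regions 1 reached this p, lower after TCPOBOP (0.115%, against 0.0472% of all regions).

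CEBPb was called in at least 1 TCPOBOP liver at each of the 3 regions where RXR was absent after TCPOBOP. On chromosome 2 at 118503625 to 118503879 RXR peaks were 207, 416, 248 and 365 bp wide in C1 to C4, and CEBPb was called in all 4 vehicle livers and in D1, D2 and D4. On chromosome 1 at 184744745 to 184745037 RXR was called in C2, C3 and C4 at 27 h but in all 6 livers of 3 h, and CEBPb in all 8 livers of 27 h. On chromosome 10 at 10547244 to 10547561 CEBPb was called in C2, C3 and C4 and in D4. At the 238 regions with RXR in at least 1 liver of 27 h, CEBPb was called at a mean of 86.4% per TCPOBOP liver, and at the 628 without RXR at 63.5%. RXR itself recurred in other animals. At those 238 regions it was called at means of 64.3% and 64.7% in vehicle and TCPOBOP livers of 3 h, and at the 628 at 1.86% and 1.27%.

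At 3 h, in other animals, CEBPa calls at these regions did not separate by treatment. CEBPa was called at 50.6%, 40.5% and 22.9% of the 866 regions in the vehicle livers A44, A45 and A46, and at 31.3%, 43.4% and 29.4% in the TCPOBOP livers D44, D45 and D46. The groups overlapped, and the 6 shares followed the same order as the lengths of the 6 lists, which held 35196, 31491, 24273, 27578, 33657 and 25344 peaks. The part of list length in these shares was not tested. The means were 37.99% ± 14.03 in vehicle and 34.7% ± 7.59 in TCPOBOP livers (SD, n = 3 each), a difference of -3.27 points. Without 1 library of 3 h it ran from -10.8 points without A46 and -7.62 without D45 to 3.02 without A44, and it was 0.808 with CEBPa lists of equal length. Over all 63546 regions the means were 42.6% and 40.7%. At 178 of the 866 regions no liver of 3 h had a CEBPa peak (20.6%, against 34.2% of all regions), and at 45 all 6 had one (5.20%, against 23.1%).

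The pattern by which the regions were chosen was met at 3 h in both directions. CEBPa had a peak in at least 2 vehicle livers and no TCPOBOP liver at 44 of the 866 regions (5.08%), against 2.56% of all regions. The reverse held at 30 (3.46%), against 1.55%. Both shares exceeded those of all regions, and both were close to those of regions with mixed calls at 27 h, at 5.28% and 3.36%. With 3 livers against 3 Fisher's exact test cannot go below p = 0.1, so no region was under 0.05, adjusted or not, for any factor.

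In every vehicle liver and in no TCPOBOP liver of 3 h, CEBPa was called at 9 of the regions (1.04%). That share was 0.434% over all regions and 0.916% over regions with mixed calls at 27 h. The reverse held at 7 (0.808%), against 0.234% and 0.452%. The 5 of the 9 with the widest CEBPa peaks at 27 h lay on chromosome 5 at 44212071 to 44212341 and at 37087237 to 37087494, on chromosome 19 at 37819579 to 37819895, on chromosome 6 at 127057530 to 127057898 and on chromosome 17 at 9590871 to 9591227. At the first, CEBPa peaks were 260, 259 and 252 bp wide in C1 to C3 and 237, 229 and 234 bp in A44 to A46, and every liver of 27 h had CEBPb. CEBPb was called in all 8 livers at 3 of these 5 regions and in at least 3 TCPOBOP livers at all 5. At chromosome 5, 37087237, RXR had peaks of 295 to 1264 bp in all 8 livers of 27 h. Of the 866 regions, 1 had CEBPa in all 7 vehicle livers of both times and in none of the 7 TCPOBOP livers. It lay on chromosome 11 at 84732378 to 84732629, with CEBPa peaks of 216, 215, 203 and 231 bp in C1 to C4 and 242, 407 and 359 bp in A44 to A46. All 8 livers of 27 h had CEBPb there, and the region was singled out after its values were seen.

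CEBPb and RXR calls of 3 h did not separate by treatment at these regions either. CEBPb was called at 11.5%, 5.31% and 21.5% of them in A44, A45 and A46 and at 19.98%, 18.5% and 10.51% in D44, D45 and D46. These lists were short, at 11899 to 22984 peaks. The means were 12.8% ± 8.15 and 16.3% ± 5.09 (SD, n = 3 each), against 25.7% and 29.4% over all regions. The difference of 3.54 points ran from -0.192 without A45 to 7.89 without A46. CEBPb was lost by the pattern above at 17 regions (1.96%, against 0.993% of all regions) and gained at 26 (3.00%, against 2.27%). RXR was called at 27.1%, 12.4% and 17.6% in A1, A3 and A4 and at 20.7%, 16.7% and 18.7% in B1, B3 and B4. The means were 19.01% ± 7.50 and 18.7% ± 1.96, against 21.4% and 22.1% over all regions. The difference of -0.308 points ran from -3.64 without A3 to 3.75 without A1, and was 0.231 with RXR lists of equal length. RXR was lost at 8 regions (0.924%, against 0.667%) and gained at 5 (0.577%, against 0.565%).

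**Figure D5:**
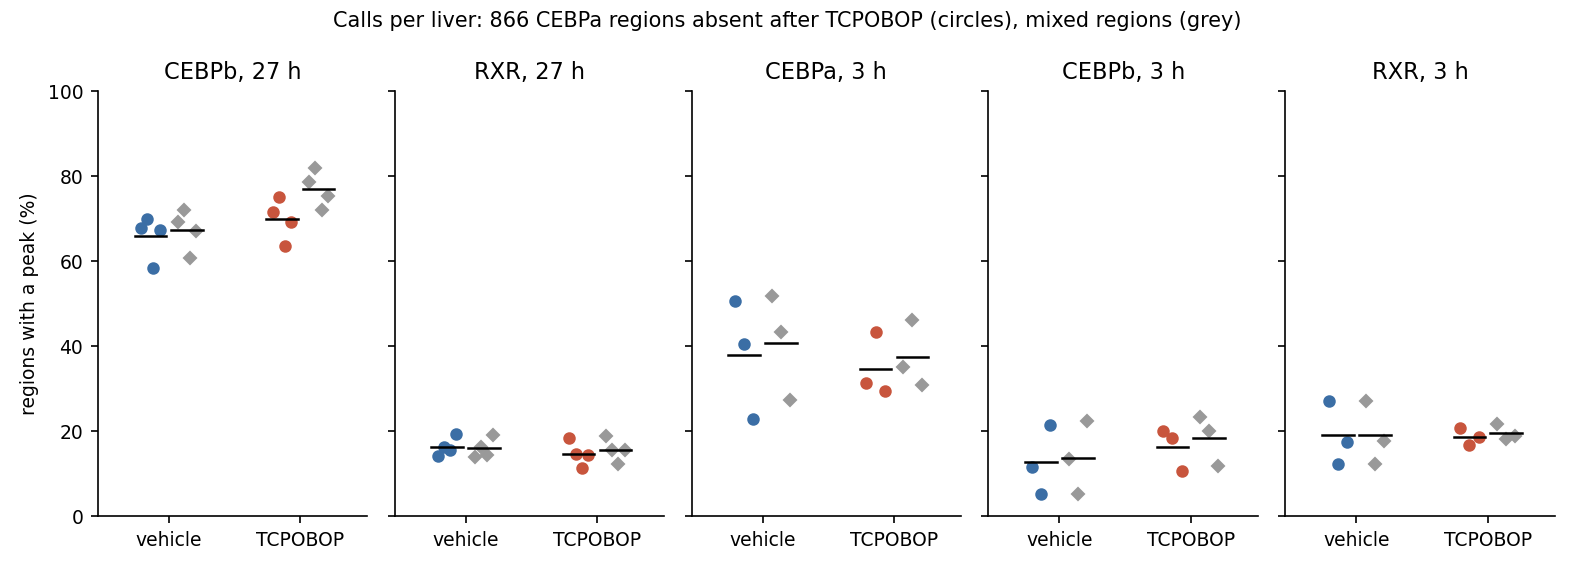
Share of the 866 regions (coloured circles, 1 per liver) and of the 7749 regions with mixed calls (grey diamonds) that had a peak of each factor and time (y axis, percent); short lines are means, with 4 livers per group at 27 h and 3 at 3 h. Circles of the vehicle and TCPOBOP groups overlap in all 5 panels.

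Regions with mixed calls give the level to read these shares against. They had 3 or 4 CEBPa calls among the 8 lists of 27 h, with at least 1 in each treatment, and there were 7749 of them. Their median width was 302 bp, against 297.5 bp for the 866 regions and 384 bp for regions called in all 8 lists. Their CEBPb calls averaged 67.3% ± 4.72 in vehicle and 77.0% ± 4.23 in TCPOBOP livers (SD, n = 4 each), a difference of 9.69 points. At the 162 regions of the reverse CEBPa pattern CEBPb was called at 61.6% ± 5.15 and 83.6% ± 4.32, a difference of 22.1 points. These classes were not recomputed with CEBPb lists of equal length, under which the difference at the 866 regions turned. At 3 h the CEBPa difference was -3.27 points at the 866 regions, -3.40 at mixed regions and 4.53 at the reverse pattern.

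The edge of the definition fell within a graded series. Regions with CEBPa in 4, 3 and 2 vehicle lists and no TCPOBOP list numbered 131, 735 and 3039. Their median width percentiles were 33.0, 31.2 and 26.7, and CEBPb was called in TCPOBOP livers at means of 79.6%, 68.1% and 50.8%. The 1869 regions just outside on the other side, with at least 3 vehicle calls and 1 TCPOBOP call, had a median percentile of 35.1 and CEBPb at 82.8%. CEBPa at 3 h followed the same grading in vehicle livers, at 48.3%, 36.1% and 23.3% for 4, 3 and 2 lists and 50.5% for the regions with 1 TCPOBOP call.

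The regions were spread over the genome. They made up 0.958% of all CEBPa regions on chromosome 18 to 1.80% on chromosome X among the chromosomes that held any, and chromosome Y, with 45 CEBPa regions, held none. The median distance to the nearest region with CEBPa in all 8 lists was 45304.5 bp, against 42382 bp for mixed regions. A TCPOBOP CEBPa peak lay within 500 bp of 32 regions (3.695%), and 1 region overlapped a peak of an input control. There were 56 pairs of regions within 100 kb of each other. The closest pair, 505 bp apart, was on chromosome 2 at 77860948 to 77861312 and 77861818 to 77862157, the next was on chromosome 1 at 132656470 to 132656773 and 132658162 to 132658486, and the third was on chromosome 2 at 148820908 to 148821193 and 148824688 to 148825142.

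At 26 regions (3.00% of the 866) neither CEBPb nor RXR had a peak in any list of either time. The same share over all regions is not given. For CEBPb at 27 h alone, regions without a call in any liver were 3.23% of the 866 and 17.1% of all regions. The widest of the 26 was on chromosome 7 at 94210138 to 94210520, with CEBPa peaks of 366, 252 and 208 bp in C1 to C3. CEBPa was called there in 2 vehicle and 1 TCPOBOP livers of 3 h. The next, on chromosome 6 at 12911829 to 12912139 and on chromosome 10 at 35011102 to 35011367, had no CEBPa peak at 3 h, nor did those on chromosome 9 at 75546041 to 75546323 and on chromosome 6 at 149315497 to 149315763. At these last 4 the CEBPa calls of 3 vehicle livers were the only ones among the 42 immunoprecipitated lists.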

How the data were processed

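Chromatin from single livers was precipitated with antibodies to RXRa, CEBPa or CEBPb, and 4 input controls were not precipitated, per the labels' protocols. Each library has its own deposited list of peaks. The submitters' processing notes name Bowtie2 2.3.2, MACS2 and the build mm9, without settings. A line gives the position of a peak and its name, with no score, fold or p-value. Starts, counted from 0 in the deposited lists, were raised by 1. The gene and promoter tables at hand are of the assembly GRCm38, so none of their positions or sequences was used. Depth is unknown. The 42 immunoprecipitated lists held 11899 to 55513 peaks and the inputs 7 to 1480. At most 0.0245% of the peaks of 2 CEBPa lists of a group had the same start and end.

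A peak counted as a call when it overlapped a region by at least 1 bp, and the widest was used where several did. The members and lists were chosen with earlier results of these data known. Calls per region were tested with two-sided Fisher's exact tests over all regions with Benjamini-Hochberg adjustment. Exact permutation tests planned for CEBPa list length and for the CEBPa to CEBPb ratio are not given, because those lists chose the regions. For each region, the p-value compares the numbers of livers with and without a peak between the treatments. Named regions were the 10 with the widest peaks among those in all 4 vehicle lists, up to 10 that also lacked CEBPb and up to 5 that lacked RXR after TCPOBOP, and up to 5 each with CEBPb in 8 livers, with CEBPa in 6 or in only the vehicle livers of 3 h, and without other factors; pairs within 100 kb were named by distance. Apart from the pairs, each of these sets was ranked by mean width percentile of the CEBPa peaks. Of the regions with CEBPa in all 6 livers of 3 h, the fifth lay on chromosome 3 at 75591694 to 75592097. The functions were tested on simulated lists. Python 3.11.15, numpy 2.4.6, scipy 1.17.1, pandas 2.3.3 and matplotlib 3.10.9 were used.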

Additional observations from a re-analysis of the deposited data

Results flagged for a closer look

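The CEBPa list of the TCPOBOP liver D4 at 27 h, with 20396 peaks, stood far below the 28818 to 29066 peaks of the other 3 TCPOBOP livers: the gap was 0.971 of the group's range, more than Dixon's 95% limit for 4 samples. The list was known to be short and is one of those that chose the regions, so this is a description of the list. Of 16 groups of values examined this way, 1 value stood apart, and chance gives about 1 in 20 groups. CEBPb and RXR lists of D4 did not stand apart.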

How the results depend on the processing

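Depth and enrichment are unknown, so a missing call is not shown to be missing binding. The 866 regions became 326 with CEBPa lists of equal length, 131 when all 4 vehicle lists were required and 249 to 1458 when 1 library was left out. The share with CEBPb in all but at most 1 TCPOBOP liver, 64.7%, became 77.9% when all 4 vehicle lists were required, 43.4% with CEBPb lists of equal length, and 84.4% for regions chosen from CEBPa lists of equal length, an alternative added after the data were seen; without 1 library it was 64.7% to 74.8%. The share that lost CEBPb, 0.924%, became 2.19% and 0.613% under the 2 alternatives of equal length and 0.315% to 1.96% without 1 library. The CEBPb difference of 4.04 points became -4.71 with CEBPb lists of equal length and 1.33 to 6.15 without 1 library. The cause of these shifts was not tested.

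The log2 difference in CEBPa list length, TCPOBOP minus vehicle, was -0.26 and ran from -0.35 to -0.14 without 1 library, and that of the CEBPa to CEBPb ratio was -0.45 and ran from -0.56 to -0.34. With livers paired by number (replicate block) both mean differences are the same by construction, -0.26 and -0.45. CEBPa calls of same-numbered livers deviated with correlations of -0.00249 to 0.0145, and those of other-numbered livers with -0.0171 to 0.0141. The calls thus showed no pairing by number. Whether same-numbered livers were handled together was not tested. RXR and 3 h differences moved by less than 1 SD between livers under every alternative run, but those of 3 h changed sign under some. Merging peaks within 200 bp was tried for the number of regions only.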
